A study of Mus musculus with 8 samples.

Results

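Expression of 10 genes of steroid dehydrogenases and related enzymes was described in newborn mouse liver: Hsd17b6, Hsd17b2, Hsd11b1, Hsd3b5, Srd5a1, Hsd17b4, Hsd17b10, Hsd17b12, Hsd17b11 and Hsd17b13. They were selected by gene name, as 10 of the 34700 gene names on the array, and were read by 13 non-control probes. All 10 were among the 23526 genes that passed the filter on dim probes. The set was drawn up with the difference between genotypes in these arrays already known, so that difference is given for its members as a description, without a test.

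The study compared 4 liver samples of wild-type pups with 4 of littermates whose maternal chromosome lacked the miR-379/miR-410 microRNA cluster, called knockout here. The cluster lies in an imprinted domain in which microRNAs are made from the maternal chromosome, so the paternal copy that these pups still carried is normally silent. Both groups were on the C57BL/6J background, came from caesarean deliveries at E19.5, and all pups were killed 4 h after birth. Total RNA of fragments of the large liver lobe was labelled with Cy3 and hybridised to single-colour Agilent arrays, 1 array for each sample. Whether each sample is a separate pup is not known for replicate 4, as described below.

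Hydroxysteroid dehydrogenases oxidise a hydroxyl group of a steroid to a ketone or run the reverse reaction, and so switch hormones between active and inactive forms inside the cell. Most belong to the short-chain dehydrogenase family, whose members also act on retinol, bile acid precursors and fatty acyl-CoA. Several enzymes numbered in the 17-beta series do most of their work on fatty acids rather than on steroids, and the liver is a main site of steroid inactivation.

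Levels below are log2 processed signals relative to the 75th percentile of the array, and differences are knockout minus wild-type on that log2 scale, with the standard error (SE) of the limma fit. Levels of different genes come from different probes and were not set against each other. A gene is called where its limma p-value, adjusted over all 23526 genes by the Benjamini-Hochberg method, was under 0.05. Over all genes the median difference was 0.03 (quartiles -0.09 and 0.14), and the median 95% interval reached 0.26 to either side. The share of spots well above background ran from 58.6% to 66.2% per array, and the number of arrays limits the precision. The noncoding RNA Mirg, transcribed from the deleted domain, averaged 2.17 ± 0.06 over the wild-type and -0.53 ± 0.33 over the knockout arrays (SD, n = 4 each). With a difference of -2.70 (SE 0.15, limma adjusted p = 0.000345; 6 arrays, -2.64, limma adjusted p = 0.0243), Mirg went with the labels on all 8 arrays.

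Replicate 4 of each group was fitted as a weighted sum of the other arrays of that group, on log2 levels of 23349 genes. The weights were 0.09, 0.37 and 0.54 of wild-type 1, 2 and 3 for wild-type 4. For knockout 4 they were 0.14, 0.24 and 0.62 of knockout 1, 2 and 3. These sums met the levels of the 10 genes with a median absolute error of 0.04 in wild-type 4 and 0.07 in knockout 4. The largest errors were 0.30 and 0.18. The other replicates were not fitted in this way, so these errors cannot show whether replicate 4 is a mixture. Xist, made from the inactive X chromosome, was well above background on knockout 1, 2 and 4 and on no wild-type array. The Y-linked gene Ddx3y was well above background on wild-type 1, 2 and 4 and on knockout 3 and 4. Both were thus present on knockout 4. Whether replicate 4 is independent is not known, so for each member and for the genes of other lists that were called, the value without it (6 arrays, 3 for each genotype) accompanies that of all 8, and every p-value measures the spread between these arrays alone. The wild-type arrays lay in 1 column of a single slide and the knockout arrays in the other. An effect of the column therefore cannot be told apart from that of genotype. Sex-linked signal was not balanced between the genotypes either, since Xist was on knockout arrays only and wild-type 3 held neither signal. A fit with Xist as a covariate thus cannot fully separate that signal from genotype.

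The markers of hepatocytes, the cells that carry most of these enzymes in liver, were tested for 10 of 10 genes, and their summed level ran from 12.49 to 12.75 over the 8 arrays. Markers of steroid-producing cells of adrenal and gonad had a summed level from 1.93 to 2.09 in wild-type and from 1.75 to 2.23 in knockout arrays (4 of 6 tested). Of that list, Cyp11a1 and Cyp11b1 did not reach a signal well above background on the 8 arrays. The other 4 genes, Star, Cyp17a1, Cyp21a1 and Nr5a1, did so on all 8. Pancreatic markers (6 of 9 tested) were at 6.99 in wild-type 3 and 6.09 in wild-type 4, against 4.44 and 4.92 in the other wild-type arrays and 3.78 to 4.47 in knockout arrays. Pnlip, one of them, reached that mark on no array. Stellate cell markers (6 of 6 tested) summed to between 7.35 and 7.52 in wild-type and between 6.93 and 7.22 in knockout arrays. Erythroid markers (5 of 6 tested) ran from 10.24 to 10.79 in wild-type and from 10.57 to 10.72 in knockout arrays, and macrophage markers (5 of 5 on the array) from 6.99 to 7.58 and from 7.07 to 7.31.

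The probes of Hsd17b6, Hsd17b2 and Hsd17b12 are printed first as examples, because every level below is the brightness of such a 60-base oligonucleotide. Positions are on mm9, as the array files give them, and where each probe lies in its transcript was not analysed here. Capitals mark the longest run that the probe shares with the probe of another gene on the array. Hsd17b6 was read at chr10:127431580-127431639 on the minus strand, Hsd17b2 at chr8:120282508-120282567 on the plus strand and Hsd17b12 at chr2:93873719-93873778 on the minus strand.
Hsd17b6 probe: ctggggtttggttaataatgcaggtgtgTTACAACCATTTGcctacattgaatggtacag
Hsd17b2 probe: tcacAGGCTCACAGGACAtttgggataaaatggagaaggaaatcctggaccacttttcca
Hsd17b12 probe: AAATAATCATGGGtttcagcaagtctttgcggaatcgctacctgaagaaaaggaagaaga
The shared run was 13 bases long for Hsd17b6 and Hsd17b12 and 14 bases for Hsd17b2. Over the 13 probes it reached 15 bases at most outside Hsd3b5, whose probe shares 23 bases with the probe of its close relative Hsd3b4. Hsd3b5 values can therefore hold signal from that relative, which did not itself pass the filter. Only probes of the array were compared, so matches to transcripts of other relatives were not analysed.

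The deleted cluster is named after its first and last microRNAs. Their mature sequences, from RefSeq on GRCm38.p6, are shown with the seed, bases 2 to 8, in capitals. They lie at chr12:109709065-109709085 and chr12:109743764-109743784, both on the plus strand.
mmu-miR-379-5p: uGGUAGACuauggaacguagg
mmu-miR-410-3p: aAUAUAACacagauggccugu
The 2 seeds differ. Matches to them in the transcripts of the 10 genes were not analysed here.

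Of the 10 genes, 5 had a lower and 5 a higher mean in knockout than in wild-type liver, with a median difference of 0.02. Over the whole array, 42 genes were called lower (0.179%) and 9 higher (0.0383%). Hsd17b6 is among the 42 and no member is among the 9, which describes the values that chose the set and is no test of it. Without scaling of the arrays those totals were 30 lower and 25 higher. With 6 arrays none of the 10 was called, where 5 genes of the whole array were called lower (0.0213%). None was called higher there over the array, and 1719 genes had an unadjusted limma p under 0.05. The groups did not overlap for Hsd17b6 and Hsd11b1, both lower in knockout, where 4.37% of all genes were separated that way. No member was separated in the other direction, against 4.76% of all genes.

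**Figure D1:**
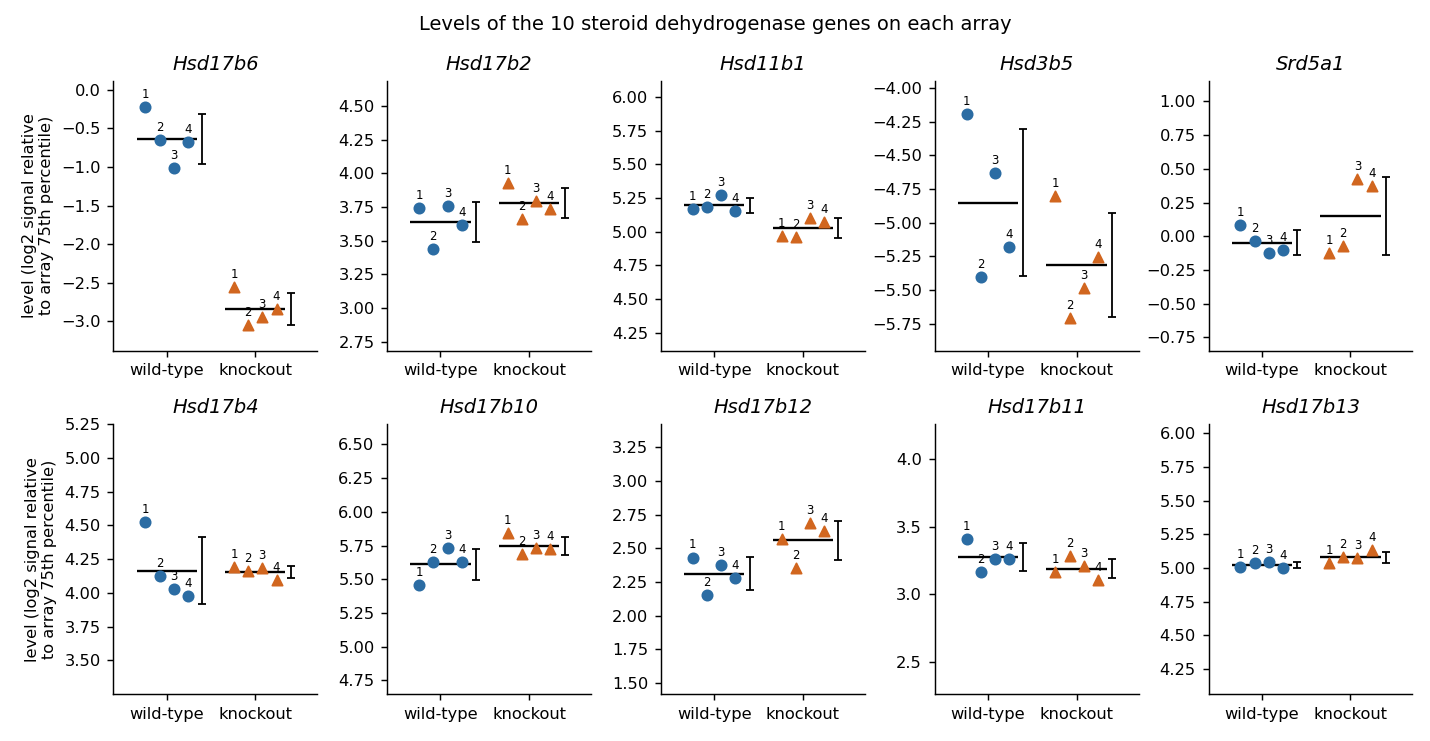
Level of each of the 10 genes on every array (log2 signal relative to the array's 75th percentile); blue circles are the 4 wild-type and orange triangles the 4 knockout arrays, digits give the replicate number, horizontal lines the means and brackets the mean ± SD, and each panel has its own axis range. The Hsd17b6 panel shows the groups far apart, between -1.02 and -0.22 in wild-type and between -3.05 and -2.56 in knockout, and in the panels other than Hsd11b1 the groups overlap.

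Hsd17b6 encodes an oxidative enzyme of the endoplasmic reticulum that turns androstanediol back into more oxidised androgens and that is closely related to the retinol dehydrogenases. It was the member with the widest gap between genotypes. Its levels were -0.22, -0.65, -1.02 and -0.67 in wild-type 1 to 4, and -2.56, -3.05, -2.94 and -2.84 in knockout 1 to 4. All 4 knockout arrays lay below all 4 wild-type arrays. In processed signal this was 550.0, 322, 263 and 334 units in wild-type and 98.6, 74.3, 76.5 and 77.3 units in knockout arrays, and the spot was well above background on all 8. The means were -0.64 ± 0.33 and -2.85 ± 0.21 (SD, n = 4 each). The difference was -2.20 (SE 0.17, 95% interval -2.60 to -1.81), which is 4.61-fold lower in knockout liver.

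Within each genotype Hsd17b6 also varied more than the median gene, with an SD within groups of 0.27 against a median of 0.16 over all genes. Wild-type 1 was highest and wild-type 3 lowest, while knockout 1 was the highest of its group. The difference was -2.22 (SE 0.23) with 6 arrays and -2.32 with Xist as a covariate, and in neither fit was the gene among those called. Leaving out wild-type 3 and 4, the arrays with the most pancreatic signal, it was -2.41. Without wild-type 1 it was -2.07. Stellate cell markers moved in the same direction as Hsd17b6, as given above, and their part in the result was not tested. In bulk liver, fewer cells that carry a transcript and less of it in each cell cannot be told apart.

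The genes with the pattern most like Hsd17b6 were ranked by the root mean square distance between levels centred on each gene's own mean, over the 8 arrays. The closest was Ces3b at 0.0592, followed by Ces3a at 0.163, Acnat2 at 0.293, Abcg5 at 0.315 and Akr1c6 at 0.318. Ces3a and Ces3b are carboxylesterases, Acnat2 an acyl-CoA to amino acid transferase, Abcg5 part of a sterol exporter and Akr1c6 an aldo-keto reductase that acts on 17-hydroxysteroids. Ces3b stood at 0.81, 0.48, 0.08 and 0.31 in wild-type and at -1.48, -1.96, -1.76 and -1.69 in knockout arrays. Its order over the 4 wild-type arrays was that of Hsd17b6, with array 1 on top and array 3 at the bottom. The difference of Ces3b was -2.14 (SE 0.17) with 8 arrays and -2.19 with 6, given without a test because likeness to Hsd17b6 chose the gene.

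The same 5 genes came out with 6 arrays. When levels were centred within each genotype, so that the gap between the groups no longer entered, Ces3b was still closest at 0.0501 and the other 4 were replaced. Acnat2 differed by -2.09 (SE 0.32).

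**Figure D2:**
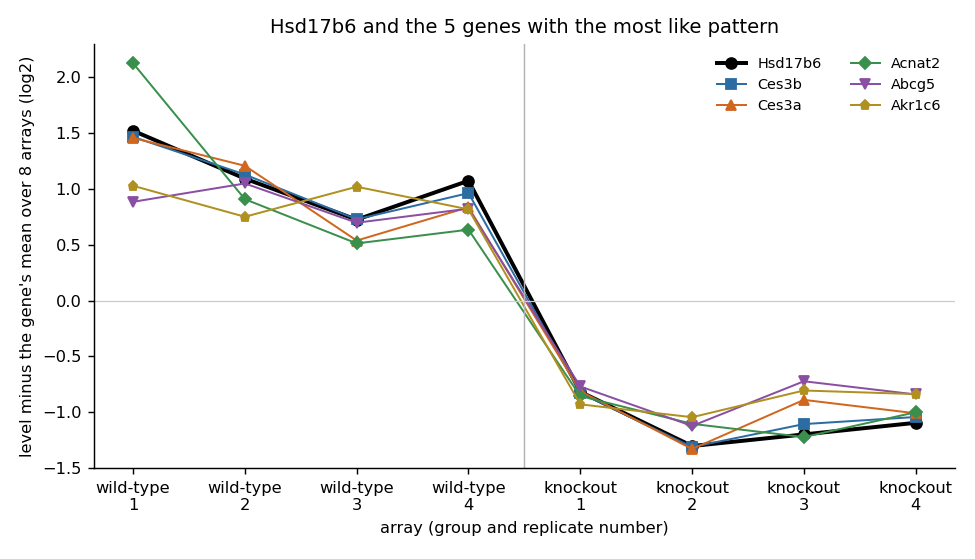
Level of Hsd17b6 and of the 5 genes most like it on each array, each centred on its own mean over the 8 arrays (log2); wild-type arrays are left of the vertical line and knockout arrays right of it, and lines join the arrays of a gene for the eye only. Ces3b runs close to Hsd17b6, with a root mean square distance of 0.0592 over the 8 arrays, and Acnat2 departs most on wild-type 1.

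The starts of Hsd17b6 and Ces3b are shown because the genes moved together. The 100 bases before the start are given 5′ to 3′ on the gene's strand, from RefSeq on GRCm38.p6, at chr10:128007612-128007711 on the minus strand and at chr8:105083655-105083754 on the plus strand. Capitals mark a match to a searched motif.
Hsd17b6 upstream: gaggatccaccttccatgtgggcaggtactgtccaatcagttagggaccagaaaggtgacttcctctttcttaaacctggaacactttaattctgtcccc
Ces3b upstream: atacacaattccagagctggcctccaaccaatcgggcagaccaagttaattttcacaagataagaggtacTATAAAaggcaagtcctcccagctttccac
Motifs were searched on both strands of 300 bases, from 250 before to 50 after the start. The TATA box, searched as TATAAA, was found in 13.6% of 32851 RefSeq promoters of that length. The C/EBP motif TTGCNNAA was found in 10.8% and the STAT motif TTCNNNGAA in 8.30%. The FOXA motif TGTTTAC was found in 3.65% and the HNF4A motif CAAAGTCCA in 0.475%. Neither RefSeq start of Hsd17b6 held any of them, and Ces3b held the TATA box at position -30. An entry was used for 8 of the 10 members. Among those, Hsd11b1 held the FOXA motif at -138, and Hsd17b11 and Hsd17b10 held the C/EBP motif at -28 and at 3. No promoter of a member held more than 1 match, so none overlapped.

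Hsd17b6 lies on chromosome 10 at the end of a row of retinol dehydrogenase genes. Neighbours were taken in RefSeq order among the genes that passed the filter, so a gene that failed it would be skipped. The 5 such neighbours on that side were Rdh7, Rdh16f2, Rdh19, Rdh18-ps and Rdh9. They differed by -0.33, -0.08, -0.30, -0.50 and -0.33. None was called. All 5 means were lower in knockout liver, where 43.4% of all genes had a lower mean, but Rdh19 was so through knockout 4 and differed by 0.37 without the replicate 4 arrays. Rdh18-ps (SE 0.44) was dim, well above background on 4 arrays, and was lower through knockout 2, at -7.45. Its other knockout levels, from -5.53 to -5.33, lay inside the wild-type range of -5.74 to -5.17. The 5 neighbours on the other side, Prim1, Naca, Ptges3, Atp5b and Baz2a, had differences between -0.0013 and 0.13. Rdh7 encodes a retinol dehydrogenase and stood at 5.82, 5.86, 5.79 and 5.68 in wild-type and at 5.67, 5.43, 5.34 and 5.39 in knockout arrays. Its groups did not overlap, and its difference of -0.33 (SE 0.09) was not past the threshold (limma adjusted p = 0.190). These neighbours were listed after their values could be seen. These dehydrogenases are related in sequence to Hsd17b6, and matches of its probe to their transcripts were not analysed here.

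Hsd17b2 encodes the enzyme that oxidises estradiol to estrone and testosterone to androstenedione, and so inactivates both hormones. It stood at 3.74, 3.44, 3.76 and 3.61 in wild-type and at 3.93, 3.66, 3.79 and 3.74 in knockout arrays. Knockout 1 and 3 lay above every wild-type array, and knockout 2 and 4 lay inside the wild-type range. The means were 3.64 ± 0.15 and 3.78 ± 0.11, a difference of 0.14 (SE 0.10, 95% interval -0.08 to 0.36). With 6 arrays it was 0.15 (SE 0.13).

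Hsd11b1 encodes the reductase that regenerates active glucocorticoid from its inactive 11-keto form and is a hallmark enzyme of hepatocytes. It stood at 5.17, 5.18, 5.27 and 5.15 in wild-type and at 4.97, 4.96, 5.10 and 5.07 in knockout arrays. Each knockout array was below the lowest wild-type array. The difference was -0.17 (SE 0.07, 95% interval -0.32 to -0.01), or 1.12-fold lower, and the gene was not called. It is the only member read by 10 spots of its probe on each array, and the SD over those spots was between 0.044 and 0.079. With 6 arrays the difference was -0.20 (SE 0.10). It shrank to -0.09 without scaling of the arrays and to -0.06 with Xist as a covariate.

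Genes around steroid hormone action were read beside Hsd11b1, as 15 tested of 17 listed. H6pd, which supplies the cofactor of Hsd11b1 in the endoplasmic reticulum, differed by 0.04, and the glucocorticoid receptor gene Nr3c1 by 0.13. None of the 15 was called, 4 had an unadjusted limma p under 0.05, and the median was -0.01. The glucocorticoid target Tat, which encodes tyrosine aminotransferase, stood at 6.14, 6.24, 5.81 and 5.94 in wild-type and at 4.89, 5.39, 4.63 and 4.85 in knockout arrays. Its groups did not overlap, and its difference of -1.09 (SE 0.17) was not past the threshold (limma adjusted p = 0.0575). Among other glucocorticoid targets, Tsc22d3 differed by -0.37 (SE 0.09, limma adjusted p = 0.156), and its groups did not overlap. Sgk1 differed by -0.22 (SE 0.12), Fkbp5 by -0.01 (SE 0.14) and Per1 by 0.09 (SE 0.09). Whether these targets share a direction was not tested. The constitutive androstane receptor gene Nr1i3 differed by -0.80. The estrogen receptor gene Esr1 differed by 0.26, and its groups did not overlap. Serpina6 differed by 1.18 (SE 0.54, limma adjusted p = 0.397), also without overlap, with wild-type 1 lowest at -0.65. Of the 15 genes, 2 were thus separated downwards and 2 upwards, beside 4.37% and 4.76% of all genes.

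Hsd3b5 is a member of the 3-beta family that works in liver as a ketosteroid reductase and is known as a marker of adult male liver. In these newborn livers it was close to the limit of the array, at 35.1, 12.0, 21.6 and 14.7 units of processed signal in wild-type and 20.9, 11.7, 13.2 and 14.4 units in knockout arrays. It was well above background on 3 wild-type and 2 knockout arrays. Its levels were -4.19, -5.40, -4.63 and -5.18 in wild-type and -4.80, -5.71, -5.48 and -5.26 in knockout arrays. Replicate 1 was highest in both groups and replicate 2 lowest, and the groups overlapped. The difference was -0.46 (SE 0.29, 95% interval -1.12 to 0.20), and the SD within groups was 0.47, the widest of the set. Without wild-type 1 it was -0.24, and with 6 arrays -0.59 (SE 0.36).

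Its likest genes were 2900054C01Rik at 0.198, Cacna1s at 0.204, 3110070M22Rik at 0.210, Hpgds at 0.212 and Car5a at 0.223. With 6 arrays, 2 of these 5 genes came out again. The other liver genes of the 3-beta family lie beside Hsd3b5. Hsd3b1, Hsd3b2, Hsd3b3 and Hsd3b6 differed by -0.11, -0.12, 0.02 and -0.11, and none was called.

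Srd5a1 encodes a steroid 5-alpha-reductase, which starts the breakdown of glucocorticoids in liver and makes dihydrotestosterone elsewhere. It stood at 0.08, -0.04, -0.13 and -0.10 in wild-type and at -0.12, -0.07, 0.43 and 0.38 in knockout arrays. Knockout 3 and 4 were above every wild-type array, and knockout 1 and 2 lay inside the wild-type range. The difference was 0.20 (SE 0.14, 95% interval -0.12 to 0.52). It was 0.10 (SE 0.17) with 6 arrays, 0.11 without knockout 3 and 0.56 with Xist as a covariate. Within the knockout group the higher levels were on knockout 3 and 4, the arrays with Ddx3y signal, whose independence is not known. Wild-type 3, the wild-type array without that signal, was the lowest of its group at -0.13. Wild-type 4, with Ddx3y signal, was close to it at -0.10. Whether the level of Srd5a1 goes with sex was not tested. A dimmer probe of Srd5a1, well above background on 2 wild-type and all 4 knockout arrays, gave a difference of 0.37.

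**Figure D3:**
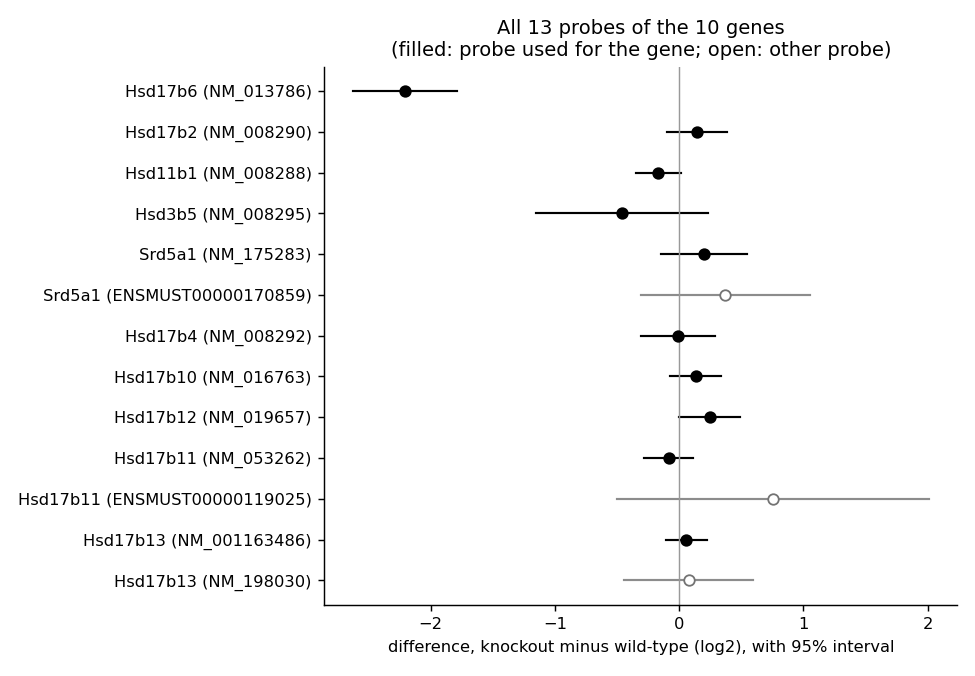
Difference between knockout and wild-type (log2) for each of the 13 probes with its 95% interval from a fit over all probes; filled points are the probe used for the gene and open points the other probes, named by accession. Only the interval of Hsd17b6 lies far from 0, and the 3 other probes, of Srd5a1, Hsd17b11 and Hsd17b13, have wide intervals that include 0.

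Hsd17b4 encodes the peroxisomal multifunctional enzyme that hydrates and dehydrogenates the CoA esters of very long-chain fatty acids and bile acid precursors. It stood at 4.52, 4.13, 4.03 and 3.98 in wild-type and at 4.19, 4.16, 4.18 and 4.09 in knockout arrays. Wild-type 1 stood above all others, and the 4 knockout arrays lay inside the wild-type range. The means were 4.16 ± 0.25 and 4.16 ± 0.04, a difference of -0.0073 (SE 0.12, 95% interval -0.28 to 0.27). The direction has no standing here, since the difference was 0.11 without wild-type 1, 0.07 without scaling of the arrays and -0.05 (SE 0.15) with 6 arrays.

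The partners of Hsd17b4 in peroxisomal beta-oxidation were tested for 16 of 16 genes. Of these, 10 had a lower and 6 a higher mean, none was called, 5 had an unadjusted limma p under 0.05, and the median was -0.09. Crot, which encodes the carnitine transferase for medium-chain products of the pathway, stood at 2.96, 3.26, 3.07 and 3.08 in wild-type and at 2.63, 2.73, 2.55 and 2.62 in knockout arrays. Its groups did not overlap, with a difference of -0.46 (SE 0.08, limma adjusted p = 0.0785). The racemase gene Amacr differed by -0.61 (SE 0.17, limma adjusted p = 0.193), with wild-type 1 at 4.98 far above the other wild-type arrays. The fatty acid transporter Slc27a2 differed by -0.28, and its groups did not overlap.

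Hsd17b10 encodes a mitochondrial dehydrogenase of isoleucine breakdown that is also a subunit of the mitochondrial RNase P, which cuts tRNAs from their precursors. It stood at 5.46, 5.63, 5.73 and 5.62 in wild-type and at 5.84, 5.69, 5.73 and 5.72 in knockout arrays. Knockout 1 was highest and wild-type 1 lowest, and the others lay together. The difference was 0.13 (SE 0.08, 95% interval -0.05 to 0.32), and 0.15 (SE 0.11) with 6 arrays. Its partners in tRNA maturation and isoleucine breakdown, 10 of 10 tested, split into 5 with a lower and 5 with a higher mean, with none called, none at an unadjusted limma p under 0.05 and a median of -0.0034. Bckdha and Bckdhb, subunits of the branched-chain keto acid dehydrogenase, differed by -0.20 and -0.15. Elac2, which trims the other tRNA end, differed by -0.07, with the sign turned to 0.00762 without scaling of the arrays. Prorp, the nuclease subunit of that RNase P, differed by 0.08, with the sign turned in 3 of the alternatives.

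Hsd17b12 encodes the ketoacyl-CoA reductase of the fatty acid elongation complex in the endoplasmic reticulum. It stood at 2.43, 2.16, 2.38 and 2.28 in wild-type and at 2.57, 2.36, 2.69 and 2.63 in knockout arrays. In knockout liver 3 arrays were above every wild-type array, and knockout 2 lay inside the wild-type range. The means were 2.31 ± 0.12 and 2.56 ± 0.14, a difference of 0.25 (SE 0.10, 95% interval 0.03 to 0.47), or 1.19-fold higher, and the gene was not called. With 6 arrays it was 0.21 (SE 0.13). No other member had a larger difference upwards on its main probe. The other elongation genes, 9 of 10 tested, had 2 lower and 7 higher means, with none called and a median of 0.05. Elovl6, the elongase of palmitate, stood at 1.66, 2.33, 3.28 and 2.85 in wild-type and at 3.36, 2.88, 3.82 and 3.63 in knockout arrays, with a difference of 0.89 (SE 0.35, limma adjusted p = 0.326). The reductase gene Tecr differed by 0.15, Elovl7 by -0.44 and Elovl2 by -0.17.

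Hsd17b11 and Hsd17b13 are neighbours on chromosome 5 and encode short-chain dehydrogenases that sit on lipid droplets. Hsd17b11 stood at 3.41, 3.17, 3.26 and 3.26 in wild-type and at 3.17, 3.28, 3.21 and 3.11 in knockout arrays, with a difference of -0.09 (SE 0.08, 95% interval -0.26 to 0.09). Hsd17b13 stood at 5.005, 5.041, 5.043 and 5.002 in wild-type and at 5.034, 5.080, 5.071 and 5.132 in knockout arrays, with a difference of 0.06 (SE 0.06, 95% interval -0.08 to 0.19). With 6 arrays the differences were -0.06 (SE 0.11) and 0.03 (SE 0.09). Both pairs of groups overlapped. The SD of Hsd17b13 within groups was 0.03, the smallest of the 10 genes. A second probe of Hsd17b13 gave 0.08, and a second probe of Hsd17b11, well above background on 2 knockout arrays only, gave 0.75.

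Other lipid droplet genes were tested for 17 of 17, with 8 lower and 9 higher means, none called, 5 at an unadjusted limma p under 0.05 and a median of 0.0028. Plin5, a droplet coat protein that ties droplets to mitochondria, stood at 4.46, 4.50, 4.36 and 4.37 in wild-type and at 4.10, 4.21, 3.75 and 3.86 in knockout arrays. The groups were apart, with a difference of -0.44 (SE 0.11, limma adjusted p = 0.158). Abhd5, the activator of the main triglyceride lipase, differed in the other direction by 0.55 and its groups were apart too. The lipase gene Lipe differed by -0.33. Fitm1, with a role in droplet formation, was dim (well above background on 6 arrays) and differed by 0.57, but by 0.15 and 0.076 with normexp background correction and by 0.19 in the deposited value table.

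Among the remaining steroid dehydrogenases and reductases, 23 of 28 were tested, and the others, Hsd17b3, Hsd3b4, Hsd11b2, Srd5a2 and Akr1c21, did not pass the filter. Of the 23, 15 had a lower and 8 a higher mean, with a median of -0.08. Akr1c6 and Akr1c20, both aldo-keto reductases, were called lower, and no gene of the list was called higher. The other tested Akr1c genes, Akr1c12, Akr1c13, Akr1c14, Akr1c18 and Akr1c19, were not called. They differed by -0.04, -0.00044, 0.28, -0.78 and 0.23, and Akr1c18 was highest on wild-type 1, at 2.35. Akr1c6 stood at 3.87, 3.59, 3.86 and 3.66 in wild-type and at 1.91, 1.80, 2.04 and 2.01 in knockout arrays. It differed by -1.81 (SE 0.09, limma adjusted p = 0.000309) and also passed the threshold with 6 arrays (limma adjusted p = 0.0175). Akr1c20 differed by -1.43 (SE 0.11, limma adjusted p = 0.00186) and was not past it with 6 arrays (limma adjusted p = 0.0736). The lists were drawn up with earlier results of these data known, and Akr1c6 was also named above for its likeness to Hsd17b6. These p-values are therefore a description and no independent test.

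Hsd3b7, a bile acid synthesis enzyme of the 3-beta family, stood at 5.82, 5.57, 5.79 and 5.60 in wild-type and at 5.52, 5.40, 5.43 and 5.43 in knockout arrays. Its groups were apart, and the difference of -0.25 (SE 0.08) was not past the threshold (limma adjusted p = 0.240). Hsd17b7, which acts in cholesterol synthesis, differed by 0.33 (SE 0.17).

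The retinol dehydrogenases and other short-chain relatives were tested for 24 of 26 genes, with 16 lower and 8 higher means, none called and a median of -0.10. Rdh11, a retinal reductase, differed by 0.64 (SE 0.16, limma adjusted p = 0.157), and Decr2, a peroxisomal dienoyl-CoA reductase, by -0.33. Enzymes of steroid hydroxylation and conjugation were tested for 17 of 20 genes, with 12 lower and 5 higher means and none called. Their median of -0.42 was the lowest of the lists. It is the value of Sult2a2 (SE 0.70), which was far higher on wild-type 1 than on any other array. Its other wild-type levels, from -1.99 to -1.86, lay inside the knockout range of -2.28 to -0.92. Sult2a1, Sult2a8, Sult1e1 and Cyp3a25 were also highest on wild-type 1. The median of this list without wild-type 1 was not computed. The glucuronosyltransferase Ugt2b1 differed by -0.81 (SE 0.14, limma adjusted p = 0.0697) and Cyp3a13 by -0.49, and their groups did not overlap. Ugt2b36 and Ugt2b5 differed by 0.38 and 0.20, also without overlap.

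**Figure D4:**
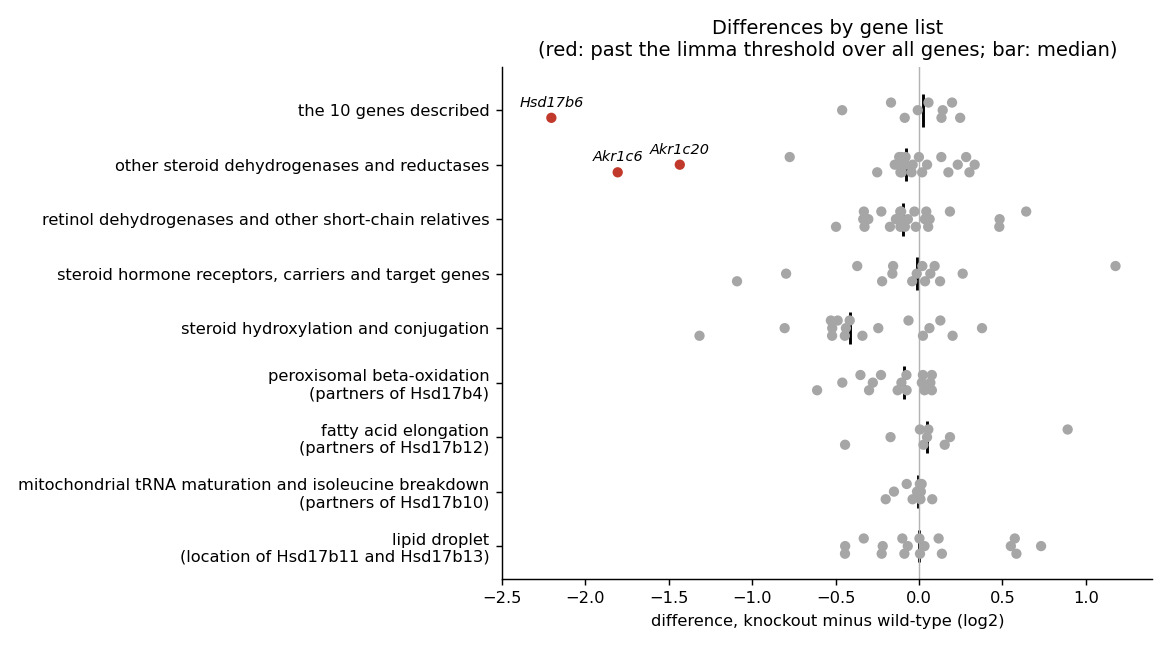
Difference between knockout and wild-type (log2) for each tested gene, by list; each point is a gene, red points passed the limma threshold over all genes, and the short bar is the median of the list. Hsd17b6, Akr1c6 and Akr1c20 are the red points, and the list medians lie between -0.42 and 0.05.

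Over all lists, 131 of 144 genes were tested, and 76 had a lower and 55 a higher mean in knockout liver, where 43.4% of all genes of the array had a lower mean. The 2 genes called lower were Akr1c6 and Akr1c20, none was called higher, and 30 had an unadjusted limma p under 0.05, against 3145 of the 23526 genes of the array. Of the 131, 15 were separated downwards and 6 upwards, beside 4.37% and 4.76% of all genes.

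**Figure D5:**
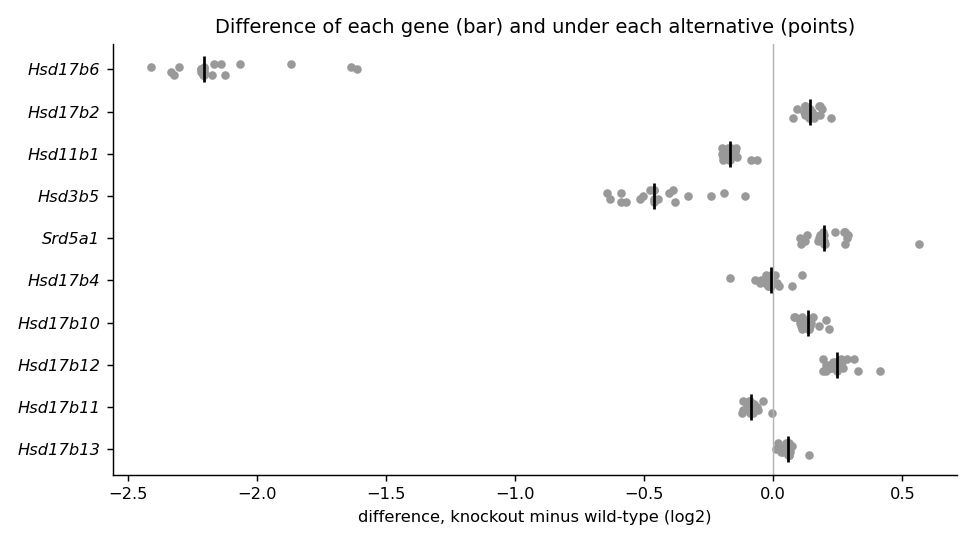
Difference between knockout and wild-type (log2) of each of the 10 genes; the bar is the value reported and each point the value under another normalization, filter, model or choice of arrays. Hsd17b6 stays between -2.41 and -1.61, and Hsd17b4 is the gene whose points lie on both sides of 0.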

How the data were processed

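RNA of 8 liver samples (4 wild-type, 4 knockout, grouped by sample title) was read on single-colour Agilent arrays. Scanner files that the authors deposited give linear spot intensity. They came from version 10.10 of Agilent Feature Extraction, according to the submitters' processing notes. A value table, also deposited, holds log2 values of 27084 probes. Its columns followed the log2 median signal (r from 0.99995 to 0.999994), had medians from 8.84 to 8.86 and were not centred by gene, and it holds 9 of the 10 members.

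Levels are log2 processed signal minus the 75th percentile of the array's non-control probes. Control and outlier-flagged spots were left out (87 probes had only flagged spots on an array), spots of a probe were averaged, and no spot was saturated. A probe was kept if well above background on at least 4 arrays, and the brightest kept probe stood for a gene. Names of 27199 probes were updated by accession and 564 by synonym, using a RefSeq table of GRCm38.p6 for names and order only. Promoters of chromosome 18 were left out.

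Groups were compared with limma 3.58.1 (R 4.3.3, lmFit and eBayes, two-sided, no covariate) on all 8 arrays. The fit was tested on simulated data. Named genes are the members, the called or 4 lowest-p genes of each list, the 5 genes most like each member with an SD above 0.5 over the arrays, and Mirg, Xist and Ddx3y. Another list gene that the rule names is not reported here. Other genes named were added after their values were seen. Members and lists were chosen with earlier results of these data known. Alternatives were other normalizations and background correction (normexp, offset 50), filters, probe rules, variance models, covariates, a replicate block and sets of arrays.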

Additional observations from a re-analysis of the deposited data

Results flagged for a closer look

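In 82 groups of 4 arrays the highest or lowest array was checked for its gap to the others. These groups were 1 for each genotype of each member and each list gene named by rule, without the genes added later. In 3 of them it lay far from the rest, and chance flags about 1 in 20 groups. No member was among them. Rdh9 was at -1.57 in wild-type 1, above the other wild-type arrays, of which the nearest was at -1.91. Amacr was at 4.98 in wild-type 1, with the nearest at 4.40. Elovl2 was at 4.08 in knockout 1, below the nearest at 4.46.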

How the results depend on the processing

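The mean of Hsd17b6 was lower in knockout liver in all 22 alternatives, which is a description, since that difference chose the set. The count of members called, 1 at first, was 0 with Xist as a covariate and 0 without both replicate 4 arrays. Its difference moved to -1.87 in the deposited value table, -1.63 with normexp scaled to the 75th percentile and -1.61 with normexp and quantile normalization. Hsd17b4 had 17 lower and 5 higher values. The other members kept their direction in every alternative run. Hsd17b12 reached 0.41 and Srd5a1 0.56 with Xist as a covariate. Elac2 turned to 0.00762 without array scaling, and Prorp to -0.16 in the deposited table, -0.000941 with the mean of probes and -0.092 with Xist as a covariate.

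Over the array, 42 genes were called lower and 9 higher. These counts were 30 and 25 without array scaling, 66 and 14 with quantile normalization, 114 and 24 with normexp and quantile normalization, 118 and 14 with normexp scaled to the 75th percentile, 123 and 20 in the deposited table, and 121 and 30 with an intensity trend and robust moderation. They were 19 and 0 with no filter, 78 and 14 with Ddx3y and 11 and 3 with Xist as a covariate, 5 and 0 without both replicate 4 arrays, 11 and 2 without wild-type 3 and 4, and 17 and 0 at an adjusted p under 0.01. Leaving out 1 array gave 14 (without knockout 4) to 64 (without wild-type 1) lower and 0 to 23 higher. Called list genes, 2 lower at first, were 4 with normexp and quantile normalization and in the deposited table, 5 with normexp scaled to the 75th percentile and with the intensity trend, and 1 with Xist as a covariate, without both replicate 4 arrays and without wild-type 3 and 4. Of the 5 genes most like Hsd17b6, 1 remained when centred within groups; for Hsd3b5, 2 remained with 6 arrays and 1 when centred. The causes were not tested.

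With the replicate number as a block (replicate block), 17 genes were called lower and 2 higher, Hsd17b6 among them. Whether the numbers pair the samples is not known. Deviations of same-numbered arrays correlated at -0.11, -0.03, -0.01 and 0.07 across genes. Arrays of different number were not compared in this way, so these values cannot decide it. The signal over background limits Hsd3b5 and the 3 dim second probes, whose differences have wide intervals.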
